A study of Mus musculus with 6 samples.

Results

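The genes described here are the nuclear genes whose symbols start with Nduf, which encode respiratory complex I subunits and several of its assembly factors, in aorta of mice on a high-fat diet. Of 55401 genes in the count table, 46 protein-coding genes carried such a symbol in the GENCODE M21 annotation, and all 46 were taken as members whatever their level. A further 5 Nduf loci are annotated as pseudogenes or a long non-coding RNA (Ndufa11b, Ndufab1-ps, Ndufb1-ps, Ndufb4c and Ndufs6b) and were left out. RNA sequencing covered 6 aorta samples, of which 3 were ApoE-/- and 3 were IL16-/-ApoE-/- (double mutants). By the labels every sample carries the ApoE mutation, and the groups differ by added loss of IL16, a cytokine that acts through CD4. The high-fat diet was started at an age of 8 weeks and lasted 24 weeks in both groups. The labels do not say which part of either gene is deleted. They also do not say whether each sample came from a separate animal, so the p-values reflect only how far these samples spread, and that spread may be technical.

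Complex I, NADH:ubiquinone oxidoreductase, is the entry point for electrons from NADH into the respiratory chain and couples their transfer to proton pumping across the mitochondrial inner membrane. Its matrix arm holds the flavin and the iron-sulfur clusters, its membrane arm holds the pumps, and the core subunits of the membrane arm are encoded by mitochondrial DNA. The nuclear Nduf genes encode the core subunits of the matrix arm, the accessory subunits around both arms and factors that build the complex. In the vessel wall and the fat around it, complex I is a main site of fuel oxidation and also a source of superoxide.

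Library totals were 65730552 to 85568269 counts in the ApoE-/- group, above the 42861980 to 47208779 counts of the double mutants. Il16, the targeted gene, was at 28.3, 28.7 and 15.1 CPM (counts scaled to library size with edgeR's TMM factors) in ApoE-/- 1, 2 and 3, and at 7.93, 12.1 and 12.2 in double mutant 1, 2 and 3. All double mutant values were lower, and the difference did not pass the test (log2 fold change -1.16 ± 0.32 SE, edgeR's quasi-likelihood test, adjusted p = 0.163). Apoe reads were present in every library, at 20.9 to 45.0 CPM in ApoE-/- and 137 to 183 in double mutants, with the latter called higher (log2 fold change 2.34 ± 0.33 SE, adjusted p = 0.0369). ApoE-/- 1 stood apart from the other 5 libraries: Xist, the RNA that coats an inactive X chromosome, was at 474 CPM there against 0.497 to 6.21 elsewhere, and the Y-linked Ddx3y was at 0.143 CPM against 70.1 to 136. Comparisons of all 6 libraries therefore set a group with mixed patterns of sex-linked genes against a uniform one. The groups also differed in spread: the common biological coefficient of variation, estimated over all tested genes, was 0.59 in ApoE-/- and 0.209 in the double mutants. Counts and medians of the Nduf classes are given with ApoE-/- 1 and without it.

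All 46 Nduf genes were tested, and each reached at least 2.34 CPM in every library. In the double mutants 2 of them rose past an adjusted p of 0.05, Ndufa1 and Ndufb2, and none fell (edgeR's quasi-likelihood test over 19833 genes, Benjamini-Hochberg). Over all genes tested, 1.14% were called higher and 0.0605% lower, 1.2% in either direction. At an unadjusted p under 0.05 there were 21 of the 46, against 15.9% of all genes. The log2 fold change was above 0 for 45 of the 46, with a median of 0.94, while the median over all genes was -0.05. In 24 members every double mutant library lay above every ApoE-/- library, and in none below. Over all genes these shares were 14.9% and 11.5%. In bulk tissue, fewer cells of a type and less RNA per cell cannot be told apart.

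**Figure D1:**
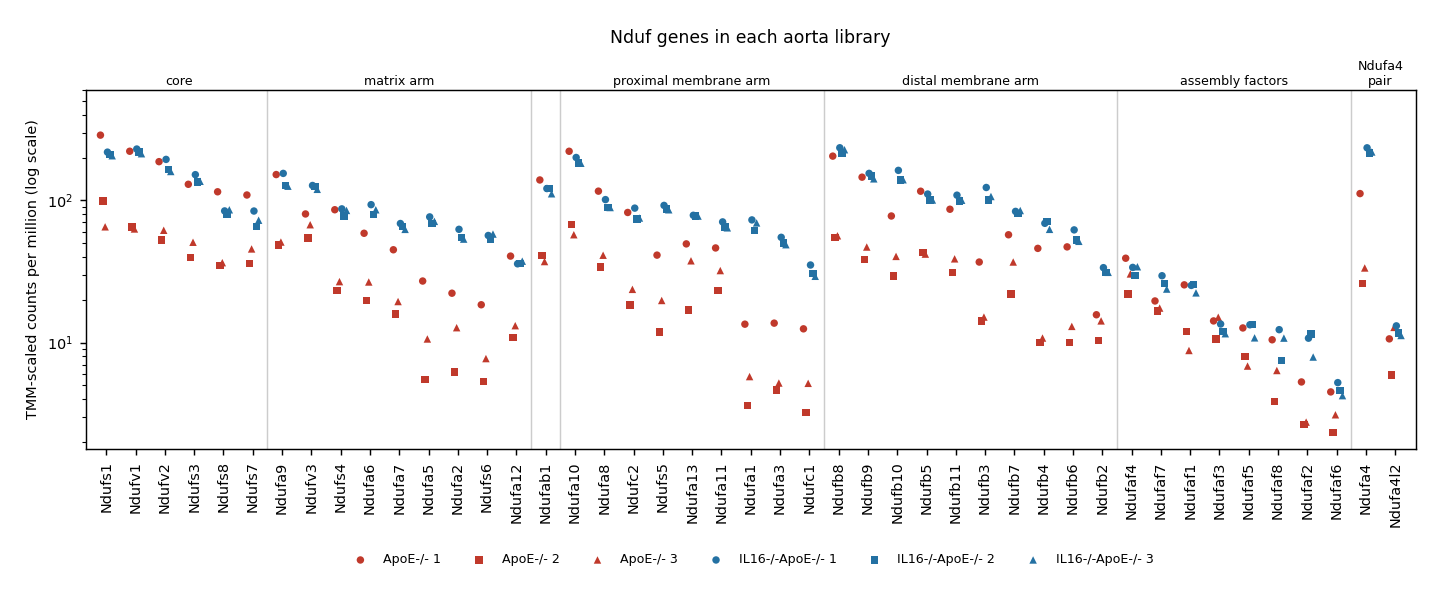
Level of each Nduf gene in each library, in TMM-scaled CPM on a log axis. Genes are grouped by role and ordered by mean level within a role, colours mark the groups (red, ApoE-/-, blue, double mutants) and shapes the replicate number. ApoE-/- 2 and 3 lie lowest for most genes, below all double mutants in 43 of 46, while ApoE-/- 1 lies above both of them in 44. These counts include 1 member that is not drawn, and their shares over all genes were not computed.

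The members spread far more among the ApoE-/- libraries than among the double mutants. The members summed to 3833, 1252 and 1396 CPM in ApoE-/- 1, 2 and 3 and to 4515, 4129 and 4130 CPM in the double mutants, so ApoE-/- 1 was close to the double mutants and the other ApoE-/- libraries were far below. ApoE-/- 1 exceeded the mean of ApoE-/- 2 and 3 by a median of 2.76-fold per member, with a range from 1.11 to 4.42. It was above all double mutants for 11 members, within their range for 10 and below all of them for 25. The shares of all genes with these patterns were not computed. The coefficient of variation had a median over members of 64.0% among ApoE-/- libraries and 6.53% among double mutants, and was larger in ApoE-/- for 45 of the 46.

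Without ApoE-/- 1, the remaining 5 libraries called 41 of the 46 members higher and none lower (edgeR's quasi-likelihood test), 89.1% of the members. Over all genes that comparison called 13.1% higher and 12.8% lower. The median log2 fold change of the members was then 1.59. All 36 complex I subunits among the members passed, with adjusted p between 0.000477 and 0.0252. The 5 that did not pass were Ndufa4l2 and the assembly factors Ndufaf3, Ndufaf4, Ndufaf6 and Ndufaf8. Without ApoE-/- 2 the members called higher numbered 0, beside 0.499% of all genes, and without ApoE-/- 3 also 0, beside 0.802%. Leaving out any 1 double mutant library left 0 members and also 0 of all genes called in either direction. Both calls were therefore lost when any library but ApoE-/- 1 was left out. With all libraries but another tool, 18 members were called higher by DESeq2 (6.23% of all genes), 6 by limma-voom (1.95%) and 39 by limma-voom with sample weights (9.39%), and none lower.

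Marker levels of other cell types separated the same libraries. Adipocyte markers (10 genes) summed to 8172, 1074 and 1027 CPM in ApoE-/- 1, 2 and 3 and to 6186 to 6589 in the double mutants. Adiponectin (Adipoq) was at 541, 66.1 and 49.8 CPM against 324 to 380. Brown fat markers (8 genes) summed to 2452, 673 and 214 CPM against 2271 to 2636, and Ucp1, the uncoupling protein of brown fat, was at 1592, 385 and 75.8 CPM against 1412 to 1777. The brown fat genes were not uniform, with log2 fold changes from -1.12 (Elovl3) to 3.43 (Cox7a1). Contractile smooth muscle markers (10 genes) ran the other way, at 4605, 20833 and 29793 CPM against 9204 to 10423, with Myh11 at 1158, 6355 and 8497 CPM against 2031 to 2345. The sums of the groups overlapped in each of these 3 lists. Every double mutant library lay above every ApoE-/- one in 2 of 10 adipocyte and 2 of 8 brown fat genes, small counts near the 14.9% of all genes. ApoE-/- 1 lay on the far side of the double mutants from ApoE-/- 2 and 3 in the adipocyte and smooth muscle sums. Of the genes in these lists, Lep was called higher and none was called lower.

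Other marker lists were also uneven. Macrophage markers (10 genes, 0 called) summed to 5160, 2538 and 441 CPM against 4758 to 6732, with Cd68 at 158, 108 and 14.5 CPM against 264 to 338. Only 3 of these 10 had groups without overlap, all with the double mutants higher, beside 14.9% of all genes. Mrc1 had a log2 fold change of -0.58. Cardiac markers (10 genes, 2 called higher) summed to 97.3 to 127 CPM against 251 to 482, and skeletal muscle markers (10 genes, 0 called) to 4.63 to 10.6 and 21.2 to 369. The defining muscle genes followed, with Myh6 at 8.12 to 45.2 CPM against 74.2 to 165 and Ckm at 0.961 to 3.20 against 4.09 to 39.4. Kidney tubule markers (11 genes, 10 called higher) summed to 0.485 to 1.83 CPM against 534 to 591. Of these 11, 7 had no count in any ApoE-/- library, among them Kap, a kidney androgen-regulated gene, at 349 to 389 CPM in the double mutants. Endothelial sums (8 genes, 0 called) also did not overlap but differed by a smaller factor, at 673 to 1079 CPM against 1269 to 1302. Pecam1 was at 309 to 396 against 443 to 467. Fibroblast sums (8 genes, 0 called) overlapped, at 8205 to 11261 against 8700 to 10188 with Pdgfra at 94.8 to 216 against 113 to 126. Every double mutant library lay above every ApoE-/- library in 7 of 8 endothelial and 2 of 8 fibroblast genes. The same held for 9 of 10 cardiac, 9 of 10 skeletal muscle and 11 of 11 kidney genes, beside 14.9% of all genes. The part of these tissue markers in the Nduf results was not tested.

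**Figure D2:**
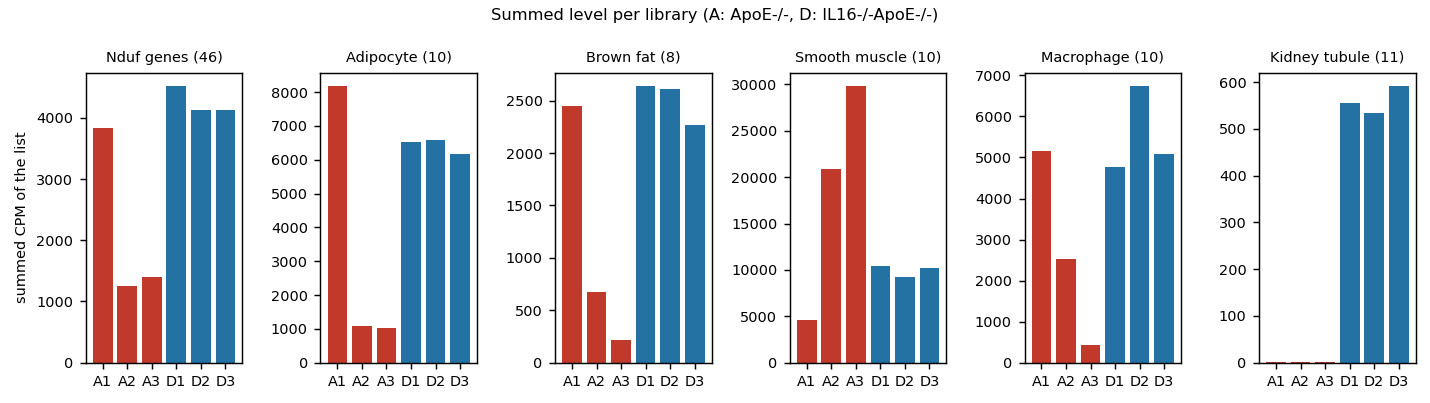
Summed level of the 46 Nduf genes and of 5 marker lists in each library, in TMM-scaled CPM, with a separate vertical axis from 0 for each panel (A1 to A3, ApoE-/-, D1 to D3, double mutants). The Nduf and brown fat sums are low in ApoE-/- 2 and 3 and higher in the other 4 libraries, smooth muscle markers are highest in ApoE-/- 2 and 3, and kidney tubule markers are near 0 in all ApoE-/- libraries.

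Core subunits, which carry out electron transfer in the matrix arm, are the most conserved part of the complex. The 7 nuclear core genes had log2 fold changes between 0.22 (Ndufs7) and 0.94 (Ndufs3), with a median of 0.53 (1.37 without ApoE-/- 1), and none passed the test. Ndufs1, the large iron-sulfur subunit next to the NADH-binding site, had the lowest core level per kilobase of transcript, at 69.0 CPM per kb over all libraries. It measured 288, 98.7 and 65.1 CPM in ApoE-/- 1 to 3 against 218, 211 and 206 CPM in double mutant 1 to 3. ApoE-/- 1 was above every double mutant and ApoE-/- 2 and 3 were below (log2 fold change 0.49 ± 0.53 SE, edgeR's quasi-likelihood test, adjusted p = 0.667). Ndufs7, which holds the last iron-sulfur cluster before ubiquinone, was at 109, 35.8 and 45.5 CPM against 84.1, 65.6 and 72.5, with a log2 fold change of 0.22 ± 0.42 SE (adjusted p = 0.812). In 1 of the 7, Ndufs3, the groups did not overlap, at 39.8 to 130 CPM against 135 to 152. Over all genes 14.9% were apart with the double mutants higher, a share close to that of the core genes. Without ApoE-/- 1 all 7 were called higher, beside 13.1% of all genes, with log2 fold changes of 0.86 to 1.78.

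Accessory subunits of the matrix arm stabilise the arm around its core. Over 9 genes the median log2 fold change was 1.29 (1.89 without ApoE-/- 1), with a range from 0.70 (Ndufa9) to 2.42 (Ndufs6). In 6 the groups did not overlap and the double mutants were higher, beside 14.9% of all genes. None passed the adjusted threshold with all libraries. Without ApoE-/- 1 all 9 were called higher, beside 13.1% of all genes. Ndufs6, a zinc-binding subunit added late in assembly, measured 18.5, 5.35 and 7.72 CPM in ApoE-/- 1 to 3 against 56.6, 53.7 and 57.9 CPM in double mutant 1 to 3. Every double mutant value lay above the highest ApoE-/- value, with a log2 fold change of 2.42 ± 0.46 SE (edgeR's quasi-likelihood test, adjusted p = 0.0792, and 0.00113 without ApoE-/- 1). Ndufa5, a helical subunit on the side of the matrix arm, was at 27.1, 5.49 and 10.6 CPM against 76.5, 69.0 and 71.2, again with separate groups (log2 fold change 2.33 ± 0.56 SE, adjusted p = 0.124). Ndufa6, a subunit of the LYR family that binds the acyl carrier protein, was highest per kilobase in the class at 159 CPM per kb, and was at 58.7, 19.8 and 26.7 CPM against 93.3, 79.9 and 85.9. Ndufa12, a paralogue of the assembly factor Ndufaf2, was lowest per kilobase at 34.5 CPM per kb. It was at 40.6, 10.9 and 13.1 CPM against 35.8, 35.9 and 37.3, so ApoE-/- 1 was above all double mutants. The log2 fold change was 1.30 ± 0.40 SE for Ndufa6 and 0.76 ± 0.50 SE for Ndufa12. Ndufab1, the mitochondrial acyl carrier protein that sits in both arms, was at 139, 41.1 and 37.1 CPM against 121, 122 and 111 (log2 fold change 0.70 ± 0.52 SE, adjusted p = 0.531), with ApoE-/- 1 the highest library.

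Accessory subunits of the proximal membrane arm, the stretch next to the matrix arm, held Ndufa1, the largest difference among all members. Ndufa1 (ENSMUSG00000016427, chromosome X from 37187588 to 37191163, GRCm38) encodes a small single-helix subunit needed for assembly. It measured 13.5, 3.60 and 5.77 CPM in ApoE-/- 1 to 3 against 72.9, 61.5 and 69.4 CPM in double mutant 1 to 3, and the groups were far apart. The log2 fold change was 3.16 ± 0.50 SE (edgeR's quasi-likelihood test, adjusted p = 0.0453, higher in 3 of 3 double mutants). Its adjusted p was 0.0012 without ApoE-/- 1 and 0.0961 to 0.231 when any other library was left out. Ndufa1 and Ndufb11 are the 2 members on chromosome X, and Ndufb11 had a log2 fold change of 0.97. Ndufa3, another small membrane subunit, was at 13.7, 4.65 and 5.19 CPM against 55.0, 50.1 and 48.8, also without overlap, and missed the threshold (log2 fold change 2.71 ± 0.45 SE, adjusted p = 0.0528, and 0.000477 without ApoE-/- 1). Ndufc1, the lowest per kilobase of the class at 24.7 CPM per kb, was at 12.5, 3.21 and 5.17 CPM against 35.1, 30.6 and 29.3. Its partner at the membrane, Ndufc2, was the highest at 104 CPM per kb and was at 82.2, 18.4 and 23.7 CPM against 88.2, 73.8 and 75.1, with ApoE-/- 1 inside the double mutant range. The log2 fold change was 2.18 ± 0.50 SE for Ndufc1 and 0.93 ± 0.56 SE for Ndufc2. Over the 9 genes of the class, 1 was called higher with all libraries, beside 1.14% of all genes, and 9 without ApoE-/- 1, beside 13.1%. The median was 1.17 (1.91 without ApoE-/- 1) and the lowest was Ndufa8 at 0.55. In 6 the groups did not overlap and the double mutants were higher, beside 14.9% of all genes.

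Accessory subunits of the distal membrane arm, where the outer proton pumps lie, had groups without overlap in 8 of 10 genes, beside 14.9% of all genes. Of the 10, 1 was called higher with all libraries, beside 1.14% of all genes, and 10 without ApoE-/- 1, beside 13.1%. Ndufb2 (ENSMUSG00000002416, chromosome 6 from 39592574 to 39603382, GRCm38), a small membrane subunit, measured 15.7, 10.4 and 14.2 CPM in ApoE-/- 1 to 3 against 33.6, 31.1 and 31.2 CPM in double mutant 1 to 3. Its groups did not overlap and its ApoE-/- libraries spread less than those of most members. The log2 fold change was 1.25 ± 0.19 SE (edgeR's quasi-likelihood test, adjusted p = 0.0439, higher in 3 of 3 double mutants). Its adjusted p was 0.0047 without ApoE-/- 1 and 0.0716 to 0.263 when any other library was left out. Its level per kilobase, 9.41 CPM per kb, was the lowest of the class but uncertain, since its annotated transcripts are 455 and 4371 bases long. Ndufb9, another LYR subunit bound to an acyl carrier protein, was the highest at 160 CPM per kb. It was at 146, 38.3 and 47.0 CPM against 155, 148 and 142, and ApoE-/- 1 lay within the double mutant range (log2 fold change 0.95 ± 0.51 SE). Ndufb3 had the largest fold change of the class, 2.32 (adjusted p = 0.0619), at 14.2 to 36.8 CPM against 101 to 123. The class median was 1.17 (1.91 without ApoE-/- 1) and the lowest value was Ndufb5 at 0.63.

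Assembly factors, which join or modify subunits and leave before the complex is finished, numbered 8 genes. Of these none passed the test with all libraries. Without ApoE-/- 1, 4 were called higher, beside 13.1% of all genes. The class median of the log2 fold change was 0.53 (0.77 without ApoE-/- 1). Ndufaf3, which acts with Ndufaf4 on the ubiquinone-binding module, was at 14.2, 10.6 and 15.1 CPM against 13.5, 11.9 and 11.5, and was the 1 member with a negative fold change (log2 fold change -0.11 ± 0.20 SE, edgeR's quasi-likelihood test, adjusted p = 0.808). Ndufaf4 was at 39.2, 22.0 and 30.4 CPM against 33.8, 29.7 and 34.1, with overlapping groups (log2 fold change 0.09 ± 0.23 SE). For both genes all double mutant values lay within the range of the ApoE-/- libraries. Ndufaf8, the partner of the Ndufs7-modifying enzyme Ndufaf5, was the highest per kilobase of the class at 14.1 CPM per kb and was at 10.5, 3.86 and 6.36 CPM against 12.3, 7.45 and 10.8. Ndufaf6 was the lowest at 3.70 CPM per kb, with 4.50, 2.34 and 3.11 CPM against 5.23, 4.62 and 4.24. In 2 of the 8 the groups did not overlap and the double mutants were higher, beside 14.9% of all genes. These were Ndufaf7, a methyltransferase, at 16.7 to 19.6 CPM against 23.8 to 29.5, and Ndufaf2, at 2.65 to 5.29 CPM against 7.91 to 11.5. Their log2 fold changes were 0.56 and 1.49.

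Ndufa4 and Ndufa4l2 carry the Nduf name for historical reasons: Ndufa4 is now placed in cytochrome c oxidase (complex IV), and Ndufa4l2 is its hypoxia-induced paralogue. Ndufa4 measured 112, 26.1 and 33.5 CPM in ApoE-/- 1 to 3 against 234, 216 and 219 CPM in double mutant 1 to 3. Its groups did not overlap (log2 fold change 1.97 ± 0.56 SE, edgeR's quasi-likelihood test, adjusted p = 0.178, and 0.000724 without ApoE-/- 1). Ndufa4l2 was at 10.6, 5.94 and 12.8 CPM against 13.1, 11.7 and 11.2, with overlapping groups (log2 fold change 0.29 ± 0.31 SE, adjusted p = 0.653, and 0.471 without ApoE-/- 1). The count ratio of Ndufa4 to Ndufa4l2 was 10.5, 4.39 and 2.62 in ApoE-/- and 17.9, 18.5 and 19.5 in the double mutants. Since Ndufa4l2 differed little between the groups, this ratio largely restates the difference in Ndufa4. The median transcript lengths also differ, at 460 bases for Ndufa4 and 934 for Ndufa4l2, and the part of length in the ratio was not tested.

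**Figure D3:**
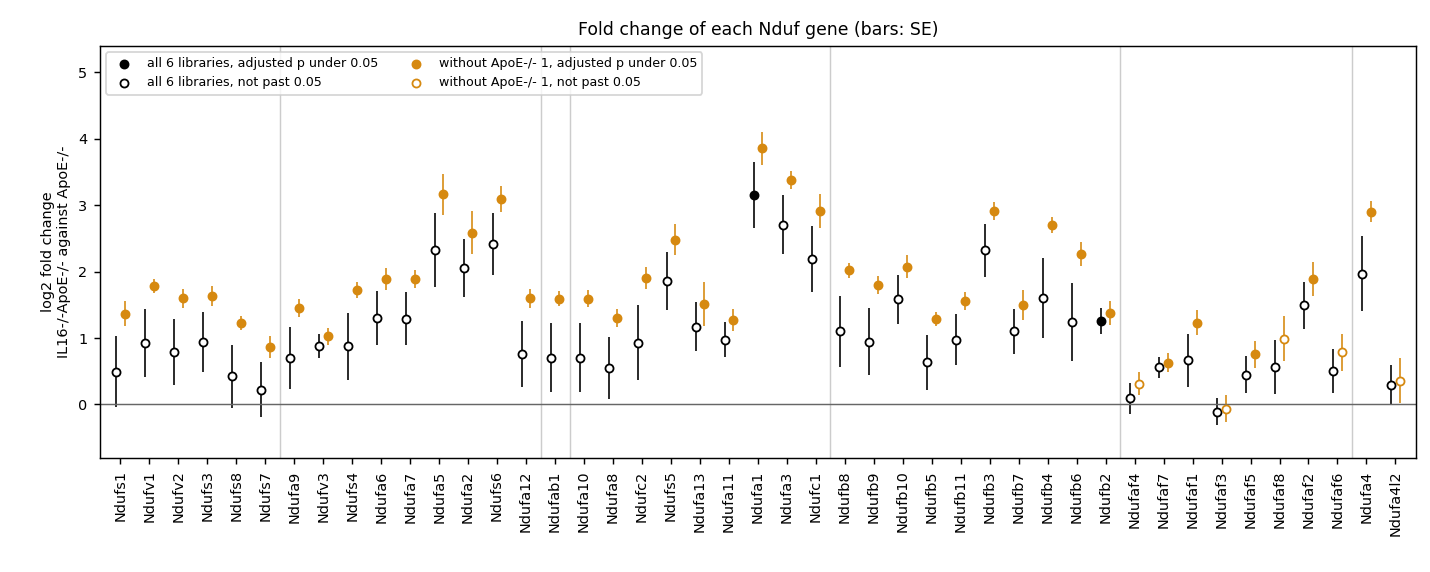
Log2 fold change of each Nduf gene, double mutants against ApoE-/-, with SE bars, from all 6 libraries (black) and without ApoE-/- 1 (orange). Filled points passed an adjusted p of 0.05 in edgeR's quasi-likelihood test: 2 genes with all libraries and 41 without ApoE-/- 1, counts that include 1 member not drawn. Ndufa1 is highest in both, and Ndufaf3 is lowest in both.

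Fold changes were larger for shorter transcripts. Length was taken as the median over a gene's annotated transcripts. The 12 members under 600 bases had a median log2 fold change of 1.91, the 16 of 600 to under 1000 bases 0.91, the 12 of 1000 to under 2000 bases 0.74 and the 6 of 2000 bases or more 0.63, the last class holding Ndufb2 by the median of its 2 transcripts. The same order appeared among other protein-coding genes at a lower level, with medians of 1.00 (252 genes), 0.30 (997), 0.07 (3898) and -0.15 (10452). Across the 46 members Spearman's rho between length and log2 fold change was -0.63, and across 15599 other protein-coding genes it was -0.25. These are descriptions across genes that share libraries. The roles differ in length too, with a median of 1312 bases for core subunits, 595 for the matrix arm, 599 for the proximal and 748 for the distal membrane arm, so role and length cannot be told apart here. With a smooth trend of log2 level on length removed from each library, the class medians were 0.61 for core, 0.66 for matrix arm, 1.07 for proximal and 0.91 for distal membrane arm genes, and with ApoE-/- 1 also left out they were 1.38 for core and 1.29 for matrix arm genes. The order of core and matrix arm genes thus turned with these settings, and no difference between classes was tested.

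The length pattern differed between ApoE-/- 1 and the other ApoE-/- libraries. On the log2(CPM + 1) scale, the double mutant mean over ApoE-/- 1 had a median of 1.04 for members under 600 bases and -0.23 for those of 2000 bases or more. Over the mean of ApoE-/- 2 and 3 the medians were 2.44 and 1.33, against 0.93 and -0.13 for other protein-coding genes of these lengths. The long members were thus near the level of ApoE-/- 1 and above that of ApoE-/- 2 and 3, and the short members were above both. With the length trend removed from all 6 libraries, 1 member was called (Ndufb2, adjusted p = 0.0403) beside 0.818% of all genes, Ndufa1 had an adjusted p of 0.0642, and the members' median was 0.68. With that trend removed and ApoE-/- 1 left out, an alternative chosen after seeing the data, 39 members were called higher beside 12.6% of all genes, with a median of 1.27. The cause of the length pattern was not tested.

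**Figure D4:**
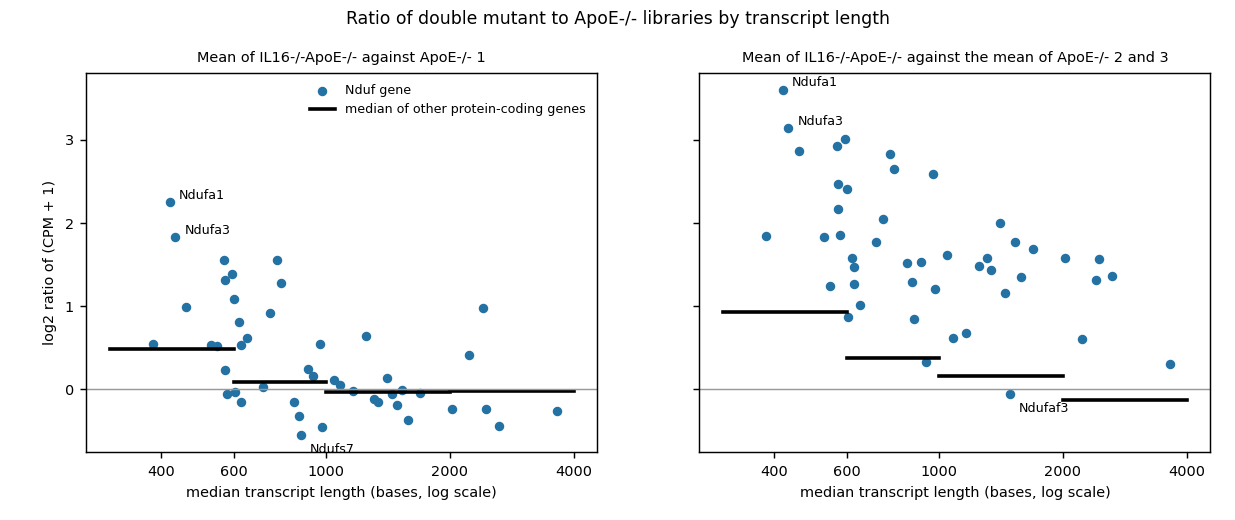
Log2 ratio of (CPM + 1) between the double mutant mean and ApoE-/- 1 (left) or the mean of ApoE-/- 2 and 3 (right), against median transcript length in bases on a log axis. Points are the 46 Nduf genes and black lines the medians of other protein-coding genes under 600, 600 to under 1000, 1000 to under 2000 and 2000 or more bases, the outer lines drawn to a fixed end. Short Nduf genes lie highest in both panels, and long ones lie near 0 on the left and above 0 on the right.

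Promoters were compared because the members moved together across libraries. Nuclear respiratory genes are known for sites of NRF1, ETS-family factors (NRF2), YY1, ERR and SP/KLF factors. RefSeq promoter windows (GRCm38.p6, 250 bases before to 50 after each start) matched 40 of the 46 members by symbol and gave 42 windows. Members without a window included Ndufa2, Ndufa4l2, Ndufaf6, Ndufb9 and Ndufs1. On either strand, the NRF1 letters, GCGC on each side of any 2 bases, were in 12 windows (28.6%), against 6.23% of all 32851 windows and 8.57% of those of protein-coding genes. The YY1 letters AAGATGGC were in 8 windows (19.0%), against 2.75% and 3.05%, and all 8 matches lay after the start, 11 to 39 bases into the transcript. Among protein-coding windows with these letters 49.2% had a match after the start. The ETS letters CCGGAAG were in 6 windows (14.3%), against 8.86% of all and 11.6% of protein-coding windows. The ERR letters AAGGTCA were in 3 (7.14%), against 4.72% and 4.08%. The SP/KLF letters GGGCGGGG were in 9 (21.4%), above the 17.6% of all windows and below the 23.6% of protein-coding ones. At least 1 of the NRF1, ETS and YY1 motifs was in 24 windows, 57.1% against 16.0% of all and 20.7% of protein-coding windows. That pool leaves out the ERR and SP/KLF motifs, and the SP/KLF letters were less frequent in members than in protein-coding windows. The share with any of the 5 motifs is not given. Such matches are letters in a window, not measured binding, and NRF1 matches can overlap each other in repeats of GC.

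The 200 bases before the start are shown for 4 members that span the range of responses: Ndufb2, called higher, Ndufa3, which missed the threshold by a small margin, the core subunit Ndufv2, and Ndufaf4, whose fold change was near 0. All read 5′ to 3′ on the gene's strand in GRCm38.p6, end at the base before the start, and carry the searched motifs in capitals. Ndufb2 (chr6:39592365-39592564, plus strand) holds the ERR letters, starting 181 bases before the start. Ndufa3 (chr7:3617173-3617372, plus strand) holds the SP/KLF letters, 48 bases before. Ndufv2 (chr17:66101560-66101759, minus strand) holds SP/KLF letters 159 bases before and a pair of overlapping NRF1 matches 17 and 15 bases before. Ndufaf4 (chr4:24897883-24898082, plus strand) holds NRF1 letters 113 and SP/KLF letters 89 bases before.
Ndufb2: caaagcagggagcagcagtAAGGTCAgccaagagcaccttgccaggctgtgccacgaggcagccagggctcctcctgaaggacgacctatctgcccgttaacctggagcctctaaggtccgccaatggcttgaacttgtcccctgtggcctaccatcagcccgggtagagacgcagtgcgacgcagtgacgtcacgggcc
Ndufa3: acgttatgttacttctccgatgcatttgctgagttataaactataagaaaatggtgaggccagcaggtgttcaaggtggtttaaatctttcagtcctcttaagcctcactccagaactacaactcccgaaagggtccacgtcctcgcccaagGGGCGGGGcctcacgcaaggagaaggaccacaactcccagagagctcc
Ndufv2: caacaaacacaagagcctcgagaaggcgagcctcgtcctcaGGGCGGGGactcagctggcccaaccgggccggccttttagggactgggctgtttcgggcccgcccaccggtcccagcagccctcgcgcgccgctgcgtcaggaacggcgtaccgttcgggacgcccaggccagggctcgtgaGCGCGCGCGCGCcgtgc
Ndufaf4: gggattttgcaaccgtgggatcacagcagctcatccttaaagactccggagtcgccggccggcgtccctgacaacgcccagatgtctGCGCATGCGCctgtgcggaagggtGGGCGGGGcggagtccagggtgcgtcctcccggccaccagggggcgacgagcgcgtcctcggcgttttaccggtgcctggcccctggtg
Over all members with a window, the median log2 fold change was 0.98 for the 11 genes with an NRF1 match and 0.94 for the 29 without, and 0.99 for the 8 with a YY1 match and 0.96 for the 32 without, all with the 6 libraries.

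The mitochondrially encoded complex I subunits, which form the core of the membrane arm, showed no common direction. Of the 7, none was called with all libraries by edgeR's quasi-likelihood test, 1 had an unadjusted p under 0.05, and DESeq2 called 1 higher and 1 lower. With the length trend removed 1 was called lower, and limma-voom with sample weights called 1 higher. In the edgeR comparison 4 had a positive log2 fold change and the median was 0.03. The median was 0.14 without ApoE-/- 1, with 1 called higher, -0.23 without ApoE-/- 2 and -0.44 with the length trend removed. mt-Nd3 measured 508, 174 and 356 CPM in ApoE-/- 1 to 3 against 1622, 1439 and 1584 CPM in double mutant 1 to 3, without overlap (log2 fold change 2.16 ± 0.43 SE, edgeR's quasi-likelihood test, adjusted p = 0.0845). mt-Nd4l was at 1865, 1513 and 1849 CPM against 1190, 1178 and 1298, without overlap and with the double mutants lower (log2 fold change -0.51 ± 0.26 SE, adjusted p = 0.383). The difference between nuclear and mitochondrial subunits was not tested. Mitochondrial genes lie close together on long shared transcripts, and reads near their borders may be split by the counting.

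Among other complex I assembly factors, 13 were measured, none was called and the median log2 fold change was 0.29. Tmem126a, a factor of the membrane arm, was highest at 0.74 (adjusted p = 0.294), with 19.0, 11.2 and 9.04 CPM against 21.5, 21.3 and 22.7. Acad9, an acyl-CoA dehydrogenase that also serves in assembly with Ndufaf1, was lowest at -0.01 (adjusted p = 0.987), with 55.1, 34.3 and 35.6 CPM against 44.1, 38.4 and 41.8. Without ApoE-/- 1, 7 of the 13 were called higher, beside 13.1% of all genes.

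The other respiratory complexes ranged around the Nduf genes. Complexes III, IV and V together had 34 genes, of which 1 was called higher, beside 1.14% of all genes. In 23 every double mutant library lay above every ApoE-/- library, beside 14.9% of all genes. All 34 had a positive log2 fold change, with a median of 1.19 (2.07 without ApoE-/- 1). The called gene, Atp5k, a small membrane subunit of ATP synthase, was at 11.6, 3.51 and 3.29 CPM against 74.6, 73.7 and 72.8 (log2 fold change 3.59 ± 0.54 SE, edgeR's quasi-likelihood test, adjusted p = 0.0425). The lowest of the 34 was Cyc1, cytochrome c1, at 0.32, with 323, 84.9 and 74.1 CPM against 204, 193 and 204. Complex II, succinate dehydrogenase and its assembly factors, had 8 genes, none called, and a median of 0.40, from Sdhaf3 at -0.24 (7.61, 5.03 and 8.59 CPM against 5.48, 6.99 and 5.56) to Sdhaf4 at 0.55 (11.1, 4.58 and 5.12 CPM against 11.1, 10.9 and 8.49). Without ApoE-/- 1 the genes called higher were 34 of 34 for complexes III to V and 5 of 8 for complex II, beside the same 13.1%.

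Genes of mitochondrial mass and the matrix enzymes, and the regulators of mitochondrial genes, had smaller medians than the 46 Nduf genes (0.94). Of 12 mass and matrix genes none was called, and the median log2 fold change was 0.67. Mdh2, malate dehydrogenase, was highest at 1.08 (adjusted p = 0.337), with 318, 111 and 95.2 CPM against 382, 360 and 369, and the import receptor Tomm20 was lowest at -0.24, with 120, 74.8 and 81.5 CPM against 77.9, 80.3 and 75.7. Of 12 regulators none was called, and the median was 0.18. With the length trend removed, the medians were 0.64 for mass and matrix genes, 0.38 for regulators and 0.68 for Nduf genes. With ApoE-/- 1 also left out they were 1.18, 0.42 and 1.27. Mass and matrix genes thus lay close to the Nduf genes after that correction, and no difference between these lists was tested. Ppargc1a, the coactivator of mitochondrial biogenesis, was at 35.9, 11.5 and 5.89 CPM against 24.7, 17.5 and 24.5, and the nuclear receptor Esrra at 60.9, 21.7 and 21.6 CPM against 41.9, 49.3 and 49.0. The log2 fold change was 0.32 ± 0.62 SE for Ppargc1a and 0.43 ± 0.43 SE for Esrra, with ApoE-/- 1 above every double mutant for both genes. The extremes among regulators were Perm1, a muscle coregulator, at 0.59 (13.4, 10.5 and 11.8 CPM against 20.4, 14.4 and 18.7) and Yy1, the factor named above for its promoter letters, at -0.38 (79.3, 86.8 and 103 CPM against 66.8, 69.7 and 70.6). Without ApoE-/- 1, 10 of 12 mass and matrix genes were called higher, and 4 of 12 regulators higher and 1 lower, beside 13.1% higher and 12.8% lower over all genes.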

How the data were processed

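The authors deposited 1 table of raw read counts per gene for the 6 libraries, as judged from its whole numbers. Cutadapt, HISAT2 and StringTie are named per the submitters' processing notes, without versions. Not given in the sources used here were the genome build, annotation, counting program and strand setting, and reads shared with pseudogenes or overlapping genes could be split. Of 55401 gene IDs, 55141 matched a symbol in GENCODE M21 (GRCm38), which gave positions and transcript lengths. Groups and replicate numbers came from the sample titles. No pair of libraries of the same group agreed within counting noise, and each was counted as 1 sample. That does not show that each came from a separate animal, and pairs across the groups were not compared.

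A filter with edgeR's filterByExpr (minimum count 10, total 15) left 19833 genes. Counts were TMM-scaled and groups compared by edgeR's quasi-likelihood test (two-sided, no covariate, Benjamini-Hochberg, threshold 0.05; SE is the fold change over the square root of F). R 4.3.3, edgeR 4.0.16, limma 3.58.1, DESeq2 1.42.0, Python 3.11.15 and matplotlib 3.10.9 were used. The fit was also run on simulated counts with the same spread in every library. That run does not cover the unequal spread of these groups (biological coefficient of variation 0.59 in ApoE-/- and 0.209 in double mutants). Alternatives were other scalings and filters, DESeq2, limma-voom with and without sample weights, a replicate block, removal of a length trend (lowess, span 0.5) and leaving out each library.

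The members and lists were chosen with earlier results of these data known. Values in every library are given for members past the threshold, the 4 highest and the 4 lowest log2 fold changes (only the lowest of which is negative), and the highest and lowest level per kilobase in each role, with Ndufa4 and Ndufa4l2, and for the extremes of each pathway list. Genes named outside this rule (Ndufs3, Ndufb3, Ndufaf7, Ndufaf2 and others given by range) were chosen after their values were seen. Of the 46 members, 1 is counted in every total but its own values are not reported here. RefSeq promoter sequences (GRCm38.p6) were searched for 5 motifs.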

Additional observations from a re-analysis of the deposited data

How the results depend on the processing

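In each of the 18 alternatives, 43 to 46 of the 46 Nduf genes had a positive log2 fold change. All of these reused the same libraries and kept ApoE-/- 2, ApoE-/- 3 or both, which lay below all double mutants for 43 members. Against ApoE-/- 1 alone the direction was mixed. That library was above all double mutants for 11 members, within their range for 10 and below all of them for 25. Shares over all genes were not computed for these counts or for the 43 members. The number called varied between alternatives. All genes called higher numbered 226 and lower 12 in edgeR's quasi-likelihood test, against 1235 and 462 with DESeq2, 386 and 23 with limma-voom, and 1863 and 1488 with sample weights. With the length trend removed 20 were lower. Nduf genes called higher numbered 2, against 4 without a filter, 18 with DESeq2, 6 with limma-voom, 39 with sample weights and 1 with the length trend removed. Leaving out 1 library gave 0 to 2651 genes higher, 0 to 2580 lower, 0 to 41 Nduf genes, and Nduf medians of 0.64 to 1.59 (0.94 with all). The high ends are without ApoE-/- 1. Without it and with the length trend removed, chosen after seeing the data, 2530 genes were higher and 1415 lower, 39 of them Nduf genes higher. Adjusted p ranged over the alternatives from 2.48e-08 to 0.263 for Ndufa1 and from 4.33e-06 to 0.272 for Ndufb2. It ranged from 2.89e-05 to 0.312 for Ndufs6, 5.32e-07 to 0.274 for Ndufa3 and 0.000724 to 0.476 for Ndufa4. Class medians without ApoE-/- 2 were 0.27 for core, 1.02 for matrix arm, 0.84 for proximal and 0.85 for distal membrane arm genes. Without ApoE-/- 3 they were 0.22, 1.11, 1.23 and 1.01. The median of the mitochondrially encoded subunits turned negative with the length trend removed (-0.44), with the length trend removed beside the replicate block (-0.43), without ApoE-/- 2 (-0.23) and without ApoE-/- 1 with the length trend removed (-0.35). The cause was not tested.

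Same-numbered libraries did not deviate together (correlations -0.04, -0.027 and -0.01). With 3 libraries per group this cannot exclude a shared litter or day, and the labels do not say what the numbers mark. With the replicate block 0 genes were called higher and 0 lower, with 0 Nduf genes, while 2327 genes and 30 Nduf genes had an unadjusted p under 0.05. Adding the length trend to the block also gave 0, 0 and 0.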
